A study of Oryza sativa with 15 samples.

Results

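Zinc finger genes encode proteins that fold around a bound zinc ion, and the fold serves many tasks. RING-type members are ubiquitin ligases, DHHC members attach palmitate to other proteins, most CCCH members bind RNA, and C2H2, GATA and Dof members bind DNA. In endosperm, the nourishing tissue of the seed, some genes are imprinted: the allele from the mother and the allele from the father are expressed unequally because of the parent they came through. The loci described here are those whose annotated function contains the words zinc finger and does not contain F-box, kinase, transposon or helicase. The loci LOC_Os04g08034 and LOC_Os05g23950, which carry the words too, were left out. Of 331 such loci listed, 305 had enough reads to be tested in at least 1 cross set, out of 12557 tested loci of all kinds, and 258 were tested in both sets, out of 9753.

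The study crossed japonica and indica rice in both directions and sequenced RNA of the endosperm at 5 days after fertilization. LR had the japonica line Liuqianxin-A as mother and the indica line Rongfeng-B as father, and RL had Rongfeng-A as mother and Liuqianxin-B as father. YW had the japonica line Yu6-A as mother and the indica line Wufeng-B as father, and WY had Wufeng-A as mother and Yu6-B as father. All mothers were cytoplasmic male sterile lines and all fathers were fertile maintainer lines, so the seeds of every cross carried a sterile-line cytoplasm. LR and RL had 3 libraries each and YW and WY had 2 each, with 20 or more endosperms pooled in a library. The allele tables hold 1 maternal and 1 paternal count per SNP and cross, with the libraries of a cross summed, so every value below carries counting error and no spread between replicates.

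Reads summed over SNPs came to between 29149713 and 34433249 per cross. Genes of starchy endosperm (prolamins, glutelins, starch synthases and a few regulators) were counted in RPM, reads per 1000000 reads counted at SNPs of the cross. They took 115832 RPM in LR and 250570 in RL, from 34 loci. In YW and WY they took 254157 and 253928 RPM, from 31 loci. The number of loci differs between the sets, so only crosses of the same set compare like with like. Genes of green maternal tissue took 6.52 to 8.44 RPM, with 3 of the list's loci seen in LR-RL and 4 in YW-WY, none of them at 0. Within YW-WY the level was 8.44 RPM in YW and 6.52 in WY. Reads of the father's allele were present too. The maternal share of the green-tissue genes was 85.0% (YW), 67.2% (LR), 62.3% (WY) and 57.7% (RL). That of the starchy endosperm genes was likewise highest in YW, at 83.8%, with 70.1% (RL), 69.3% (LR) and 67.6% (WY). The median maternal share over all tested loci was highest in YW as well, at 75.1%. That median was 67.1% in LR, 63.8% in RL and 62.9% in WY, and 2 maternal genomes with 1 paternal genome give 66.7%. Zinc finger loci lay beside these values, with medians of 66.8% in LR and 64.1% in RL, and of 74.8% and 64.3% in YW and WY. The part of maternal tissue in any value of YW was not tested.

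A locus was called maternal or paternal where the maternal share was above, or below, 66.7% in both directions of a cross set, and japonica or indica where the higher allele followed the strain. The test was an exact two-sided binomial test, with the larger p of the 2 crosses adjusted by the Benjamini-Hochberg method over all tested loci and a threshold of 0.05. A call was strong where each direction departed from 2:1 by 5 times or more, so that the mother gave 90.9% of reads or more, or 28.6% or less. In LR-RL, 26 of 271 zinc finger loci were paternal (9.59%, against 6.75% of all loci) and 11 were maternal (4.06%, against 2.02%). Strong calls numbered 8 paternal (2.95%, against 1.63%) and 3 maternal (1.11%, against 0.847%). In YW-WY, 15 of 292 were paternal (5.14%, against 3.64%) and 20 were maternal (6.85%, against 5.94%). Strong calls there numbered 1 paternal (0.342%, against 0.612%) and 3 maternal (1.03%, against 0.970%). The balance in YW-WY turned when the null of 2:1 was replaced by each cross's own median, with 23 paternal members, 5 strongly paternal and 10 maternal. With the most read SNP of each locus alone, 9 were paternal and 12 maternal there. With the SNP positions listed in both tables, strong paternal calls in LR-RL numbered 5. Both sets gave the same paternal call at 14 of 258 loci and the same maternal call at 8, where 3.49% and 1.48% of all loci did so. A joint edgeR quasi-likelihood fit of the 4 crosses, with Benjamini-Hochberg adjustment, called 24 paternal (9.30%, against 6.69%) and 9 maternal (3.49%, against 2.56%). These shares are given as a description and were not tested against the rest of the loci. The joint fit has 1 residual degree of freedom, and its adjusted p depends on which crosses enter. Each cross was also left out in turn, with 1 strain effect for both sets, an alternative chosen after seeing the data. It left 7 paternal calls without LR, 15 without RL, 14 without YW and 13 without WY, and 3 maternal calls without LR or without YW. With all crosses and 1 strain effect there were 14 paternal calls. The shares of all loci under these alternatives are not given here. The changes in counts can thus not be read as particular to zinc finger loci. For genes named by the fixed rule and described below, calls that an alternative ended are given beside the gene. LOC_Os11g38800 and LOC_Os06g49490, named by the same rule but not described below, had no call in LR-RL with the most read SNP alone.

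**Figure D1:**
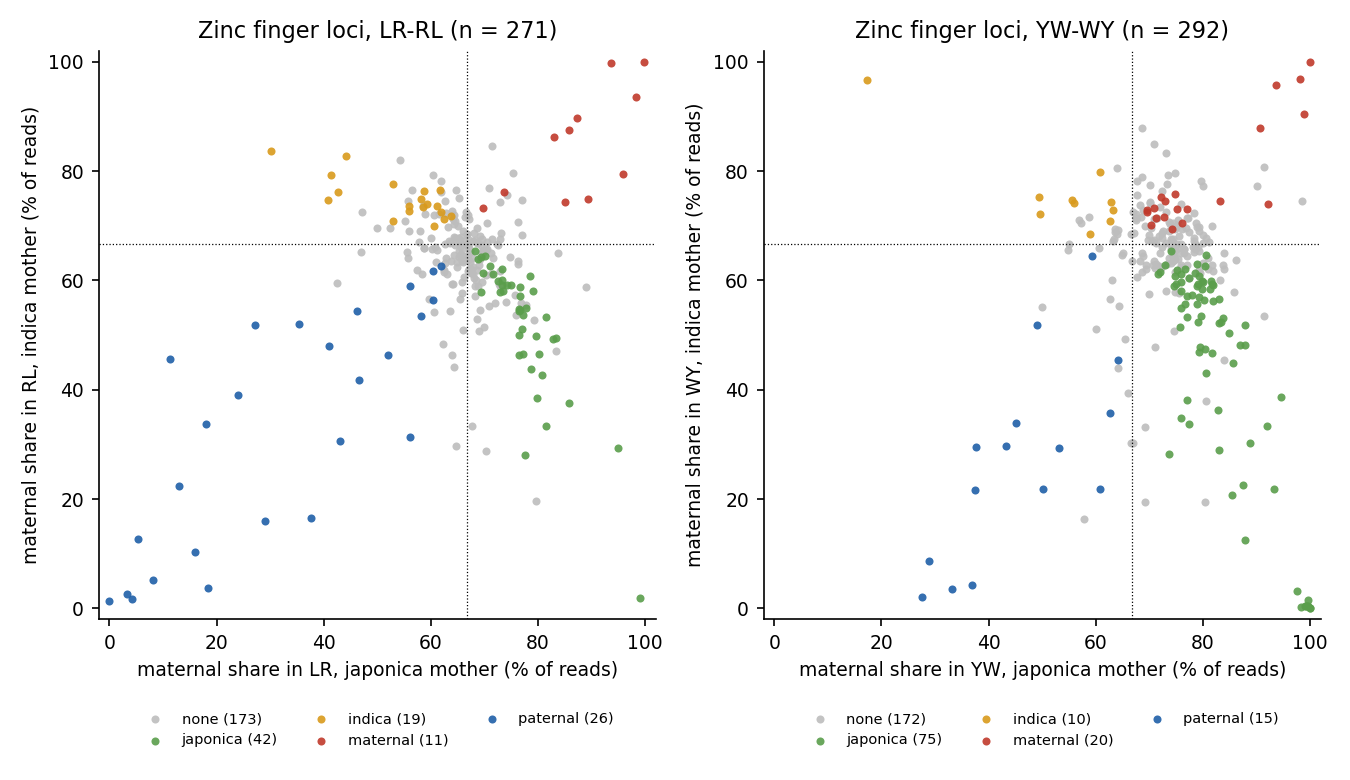
Maternal share of each tested zinc finger locus in the cross with the japonica mother (x axis, % of reads) against the cross with the indica mother (y axis), for LR-RL (271 loci) and YW-WY (292 loci). Dotted lines mark 66.7%, colours the calls. Paternal loci run toward the lower left, maternal loci toward the upper right, and the cloud of YW-WY lies to the right of the dotted line.

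The RING-type genes, which encode ubiquitin ligases or putative ones, supplied 8 of the 14 loci that were paternal in both sets. They are also the largest class, with 96 of the 258 loci tested in both, of which these 8 are 8.33%, against 3.49% of all loci. In LR-RL 13 were paternal (12.9% of those tested, against 6.75%) and 4 maternal (3.96%, against 2.02%). In YW-WY 9 of 106 were paternal (8.49%, against 3.64%) and 7 maternal (6.60%, against 5.94%). LOC_Os04g22240 (chromosome 4, SNPs from 12597836 to 12602331, build not given in the sources used here) stood farthest toward the father. The mother gave 4.16% of reads in LR, with a 95% Wilson interval of 3.24 to 5.33, and 1.78% in RL, with 1.23 to 2.58. In the other set the shares were 27.6% in YW (25.5 to 29.7) and 2.01% in WY (1.39 to 2.91). The share was low in all 4 crosses, and that of YW stood above the other three. It was the sole member with a strong paternal call in both sets, where 0.615% of all loci had one. The call rested on 37 SNPs in each table. Of those with at least 20 reads in both crosses of a set, all 34 in LR-RL and all 33 in YW-WY had shares below 66.7% in both directions. The joint effect of the mother's allele against 2:1 was -5.31 ± 0.27 (log2; edgeR adjusted p 5.3e-83). Here and below, the value after ± is the absolute effect divided by the square root of the edgeR F statistic. It is worked back from the test and is not an error estimated apart from it. Over 10 alternatives the adjusted p ran up to 0.0127, and the effect from -6.17 to -4.54.

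LOC_Os01g69040, also of the RING type, was 3.24% maternal in LR and 2.62% in RL, and 36.8% in YW beside 4.36% in WY. As at the gene above, YW stood apart, here as the one cross above 5%. This was not particular to these genes. Over all 159 loci strongly paternal in LR-RL and tested in both sets, the median share was 31.7% in YW and 5.86% in WY. Its joint effect was -4.70 ± 0.30 (log2; edgeR adjusted p 1.7e-52, at most 0.0284 over 10 alternatives). LOC_Os05g48970 was seen in LR-RL only, at 1 SNP, where LR had 0 maternal reads of 59 and RL had 1.35% of 148. A count of 0 in 59 leaves room for a share of 5.08% at most. Its neighbour LOC_Os05g48980, a ras-related gene 4083 bases away, was strongly paternal too, with maternal shares of 0% in LR and 3.34% in RL. Of the 22 tested neighbours of the named paternal loci in LR-RL, this was the one neighbour with the same call, where 6.75% of all loci were paternal. In YW-WY 0 of 16 such neighbours were paternal, where 3.64% of all loci were.

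Weaker paternal shares were seen at further RING-type genes. LOC_Os11g37230 was 18.02% maternal (LR), 33.7% (RL), 50.1% (YW) and 21.9% (WY), below 66.7% throughout. Its joint call was lost without LR, at an adjusted edgeR p of 0.0974 and an effect of -1.69 (log2; -2.24 with all crosses). LOC_Os01g61420 was 27.1% maternal in LR and between 48.9% and 51.9% in the other crosses. It was chosen for mention after its values were seen, because the adjoining LOC_Os01g61430, a HIT-type zinc finger gene, followed the strain and not the parent. That neighbour was 41.3% maternal (LR), 79.4% (RL), 49.4% (YW) and 75.3% (WY), so the indica allele was high in both sets.

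Other RING-type genes went the opposite way. LOC_Os10g41660 (chromosome 10, 22435405 to 22435442) was 98.3% maternal in LR and 93.5% in RL, with 0 paternal reads of 83 in YW and 0 of 139 in WY. With these totals a paternal share of at most 3.61% and 2.16% could go unseen. The shares lay above 90.9% in all crosses, from 2 SNPs, and the joint effect was 5.56 ± 0.60 (log2; edgeR adjusted p 6.9e-19). The joint call was lost without LR (adjusted p 0.165) and without YW (0.235), with effects of 6.53 and 4.40. LOC_Os09g26470 (chromosome 9, 15995145 to 15996665) was 99.8% maternal in LR and 98.9% in YW, and RL had 0 paternal reads of 140. Taken as separate reads, these leave room for 2.14%, and for more where a read counts at several SNPs. The share of this gene in WY, 90.4% (84.0 to 94.4), was the lowest of the 4. There, all 12 paternal reads came from 1 SNP that the LR-RL table does not list, with 14.3% maternal reads, while the other 3 SNPs had none. Its joint effect was 4.96 ± 0.36 (log2; edgeR adjusted p 1.8e-41), and the call was lost without LR (adjusted p 0.167) and without YW (0.156). LOC_Os01g24880, the RING-type member with most reads per SNP, was 73.7% maternal (LR), 76.2% (RL), 83.3% (YW) and 74.5% (WY). This departure from 66.7% was small beside those above, with a joint effect of 0.76 ± 0.22 (log2; edgeR adjusted p 0.0074). That call was lost with 1 strain effect for both sets (adjusted p 0.111), and without RL (0.646), YW (0.0893) or WY (0.578).

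**Figure D2:**
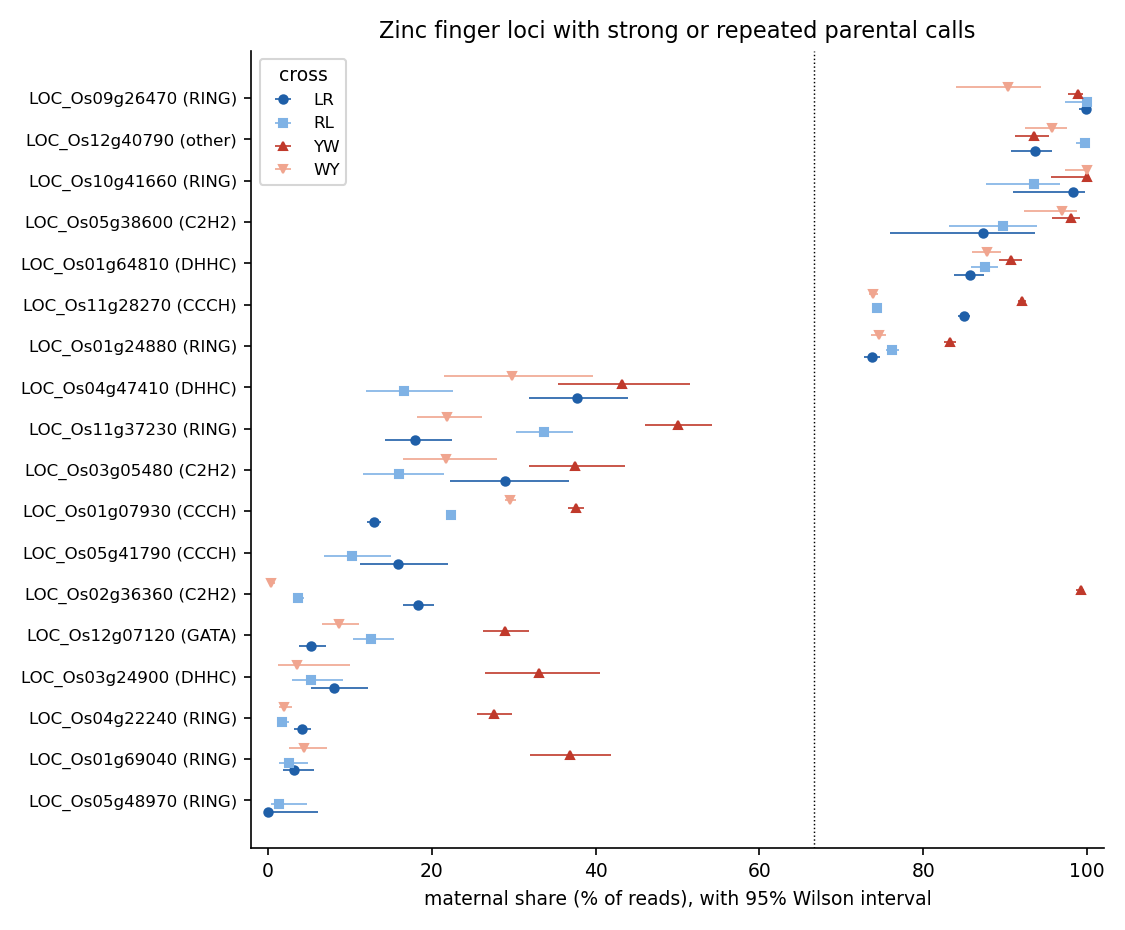
Maternal share (% of reads, with 95% Wilson interval for counting error) in the 4 crosses for the zinc finger loci with a strong call in either set or with the same parental call in both sets and the joint fit. Of the latter, at most 8 each way are drawn, by the size of the joint effect. The dotted line marks 66.7%. Over all 14 loci paternal in both sets, drawn or not, YW was above WY at 13. The same held at 79.1% of all loci tested in both.

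Among DHHC genes, which encode palmitoyl transferases, LOC_Os03g24900 was paternal and LOC_Os01g64810 was maternal. LOC_Os03g24900 was 8.09% maternal in LR and 5.29% in RL, and 33.1% in YW beside 3.57% in WY. The mother's allele was thus the lower one in all crosses, and most visible in YW, as in the median over all strongly paternal loci given above. LOC_Os01g64810 was 85.7% maternal (LR), 87.6% (RL), 90.7% (YW) and 87.8% (WY), a range of 4.96 percentage points over both strains and directions. Their joint effects were -4.49 ± 0.35 and 1.88 ± 0.23 (log2; edgeR adjusted p 7.3e-36 and 2.4e-15, at most 0.0322 and 0.0200 over 10 alternatives each). LOC_Os04g47410 was paternal in both sets with shares from 16.6% in RL to 43.3% in YW, and its joint call was lost without LR (edgeR adjusted p 0.117) and without YW (0.0901). Of the 12 DHHC loci tested in LR-RL, 3 were paternal, where 6.75% of all loci were, and 1 was maternal (2.02% of all loci). Of the 11 tested in YW-WY, 2 were paternal (3.64% of all loci) and 1 was maternal (5.94%).

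CCCH genes, whose products mostly bind RNA, held some of the most read members with a parental call. LOC_Os01g07930 (chromosome 1, 3830497 to 3831800) was 12.9% maternal (LR), 22.4% (RL), 37.6% (YW) and 29.6% (WY). All 4 shares were below 66.7%, with 6160 reads or more behind each, and the joint effect was -2.63 ± 0.24 (log2; edgeR adjusted p 2.1e-26, at most 0.0310 over 10 alternatives). Along its SNPs the share drifted in opposite directions in the reciprocal crosses. From the second SNP to the last, 1079 bases farther on, the share fell from 25.00% to 4.44% in LR and rose from 11.3% to 34.6% in RL. In YW it fell from 43.3% to 30.2%, and in WY it rose from 23.1% to 46.5%. The japonica allele thus took a smaller part of the reads toward the far end in all 4 crosses. The first SNP, with 30 to 45 reads per cross, did not follow this course.

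LOC_Os11g28270, the CCCH member with most reads per SNP, was maternal in both sets. It was 84.9% maternal (LR), 74.3% (RL), 92.1% (YW) and 73.9% (WY), so the share was higher with the japonica mother. Its joint effect was 1.27 ± 0.23 (log2; edgeR adjusted p 7.7e-07), and the call was lost without WY (adjusted p 0.0513). Its level was 64.5 RPM per SNP (LR), 173 (RL), 97.2 (YW) and 152 (WY). LOC_Os05g41790 was tested in LR-RL alone and was strongly paternal there, at 15.9% in LR and 10.3% in RL. LOC_Os08g06330, chosen for mention after its values were seen, was 95.8% maternal (LR), 79.4% (RL), 91.3% (YW) and 80.8% (WY). The last of these shares rests on 26 reads, and the locus had a maternal call in LR-RL but no call in YW-WY.

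**Figure D3:**
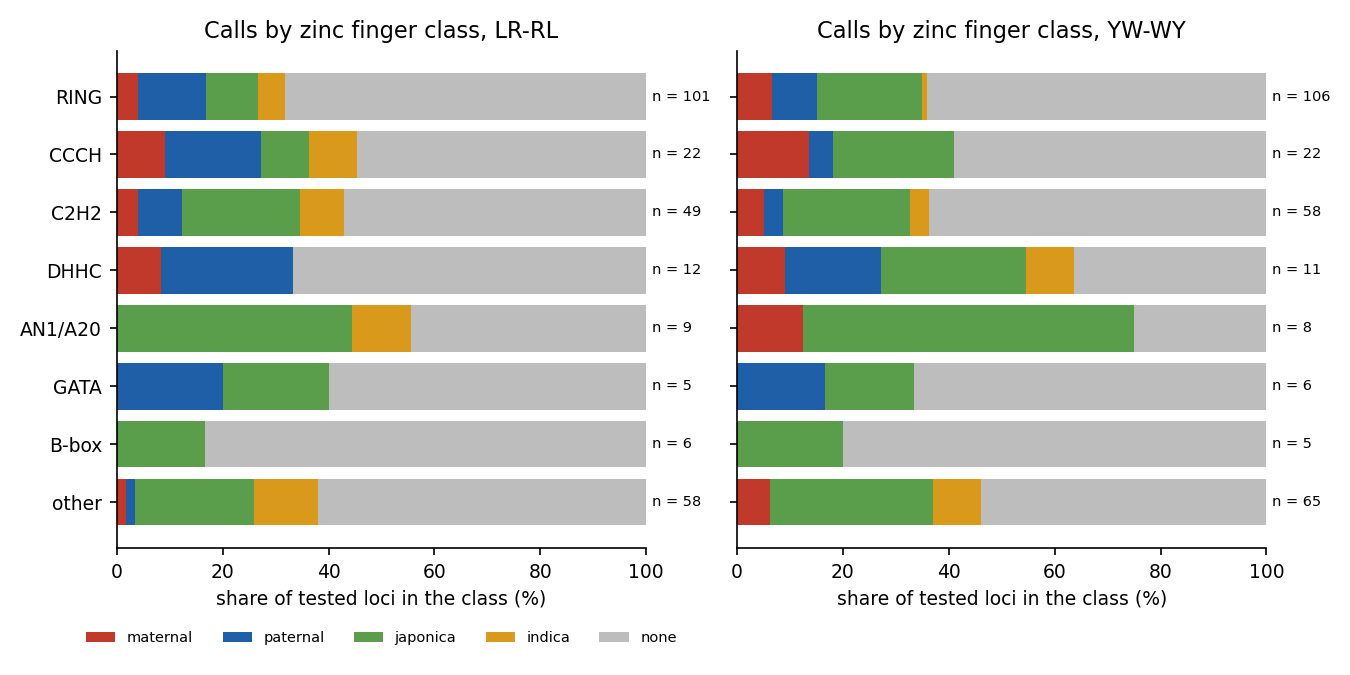
Share of tested zinc finger loci with each call, by class of zinc finger, in LR-RL and YW-WY; the number of loci tested is written at the right of each bar. Classes with 5 or more tested loci in both sets are shown. No class stands on more than 106 loci, and GATA, B-box, AN1/A20 and DHHC stand on 12 or fewer.

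Of the DNA-binding members, 4 of 49 C2H2 loci were paternal in LR-RL (8.16%, against 6.75% of all loci) and 2 maternal (4.08%, against 2.02%). In YW-WY 2 of 58 were paternal (3.45%, against 3.64%) and 3 maternal (5.17%, against 5.94%). LOC_Os12g07120, a GATA factor gene seen at 1 SNP, was 5.25% maternal (LR), 12.6% (RL), 29.0% (YW) and 8.65% (WY), paternal in all crosses. Its joint effect was -3.89 ± 0.25 (log2; edgeR adjusted p 3.4e-50, at most 0.0262 over 10 alternatives). The C2H2 gene ZOS3-01 (LOC_Os03g05480) was 29.0% maternal (LR), 15.96% (RL), 37.5% (YW) and 21.7% (WY), paternal in both sets. Another C2H2 gene, ZOS5-09 (LOC_Os05g38600), was 87.3% maternal (LR), 89.7% (RL), 98.02% (YW) and 96.9% (WY). The mother's allele of ZOS5-09 was thus the higher one throughout, from 55 reads in LR and 126 or more elsewhere, with a joint effect of 3.09 ± 0.37 (log2; edgeR adjusted p 5.8e-15). This call was lost without LR (adjusted p 0.0821) and without YW (0.205). LOC_Os12g40790, whose zinc finger type the annotation does not name, was 93.7% maternal (LR), 99.8% (RL), 93.6% (YW) and 95.7% (WY) at a single SNP. Its joint effect was 3.84 ± 0.31 (log2; edgeR adjusted p 4.8e-34), and the call was lost without LR (adjusted p 0.152) and without YW (0.166). It and LOC_Os10g41660 were the members with a strong maternal call in both sets, which 0.718% of all loci had.

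RPBF (LOC_Os02g15350, chromosome 2, 8590364 to 8591743), a Dof factor that activates storage protein genes in rice endosperm, had different calls in the 2 sets. Summed over its SNPs it was 89.4% maternal in LR and 74.9% in RL, a maternal call, but 94.6% in YW and 38.8% in WY, a japonica call. The value of WY came from 2 kinds of SNPs. At the 4 SNPs that both tables list, YW read 88.9% to 91.2% maternal and WY 74.4% to 76.4%. At the 3 SNPs that only the YW-WY table lists YW read 99.8% to 99.9% and WY 0.130% to 0.291%, so that nearly every read carried the japonica base in both directions. With the 4 common SNPs alone, chosen after the data were seen, RPBF was 89.4% maternal in YW (22379 reads) and 75.2% in WY (55146 reads). These values differed by 0.036 and 0.33 percentage points from those of LR and RL at the same SNPs, 89.3% and 74.9%, and gave a maternal call in YW-WY. The joint effect was 1.03 with all SNPs and 1.33 with the common SNPs (log2; edgeR adjusted p 0.00063 for the former). The call with all SNPs was lost under 6 of 10 alternatives: the median ratio in the offset (adjusted p 0.0544), 1 strain effect (0.391), the most read SNP (0.991), and without LR (0.304), RL (1) or YW (0.732).

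**Figure D4:**
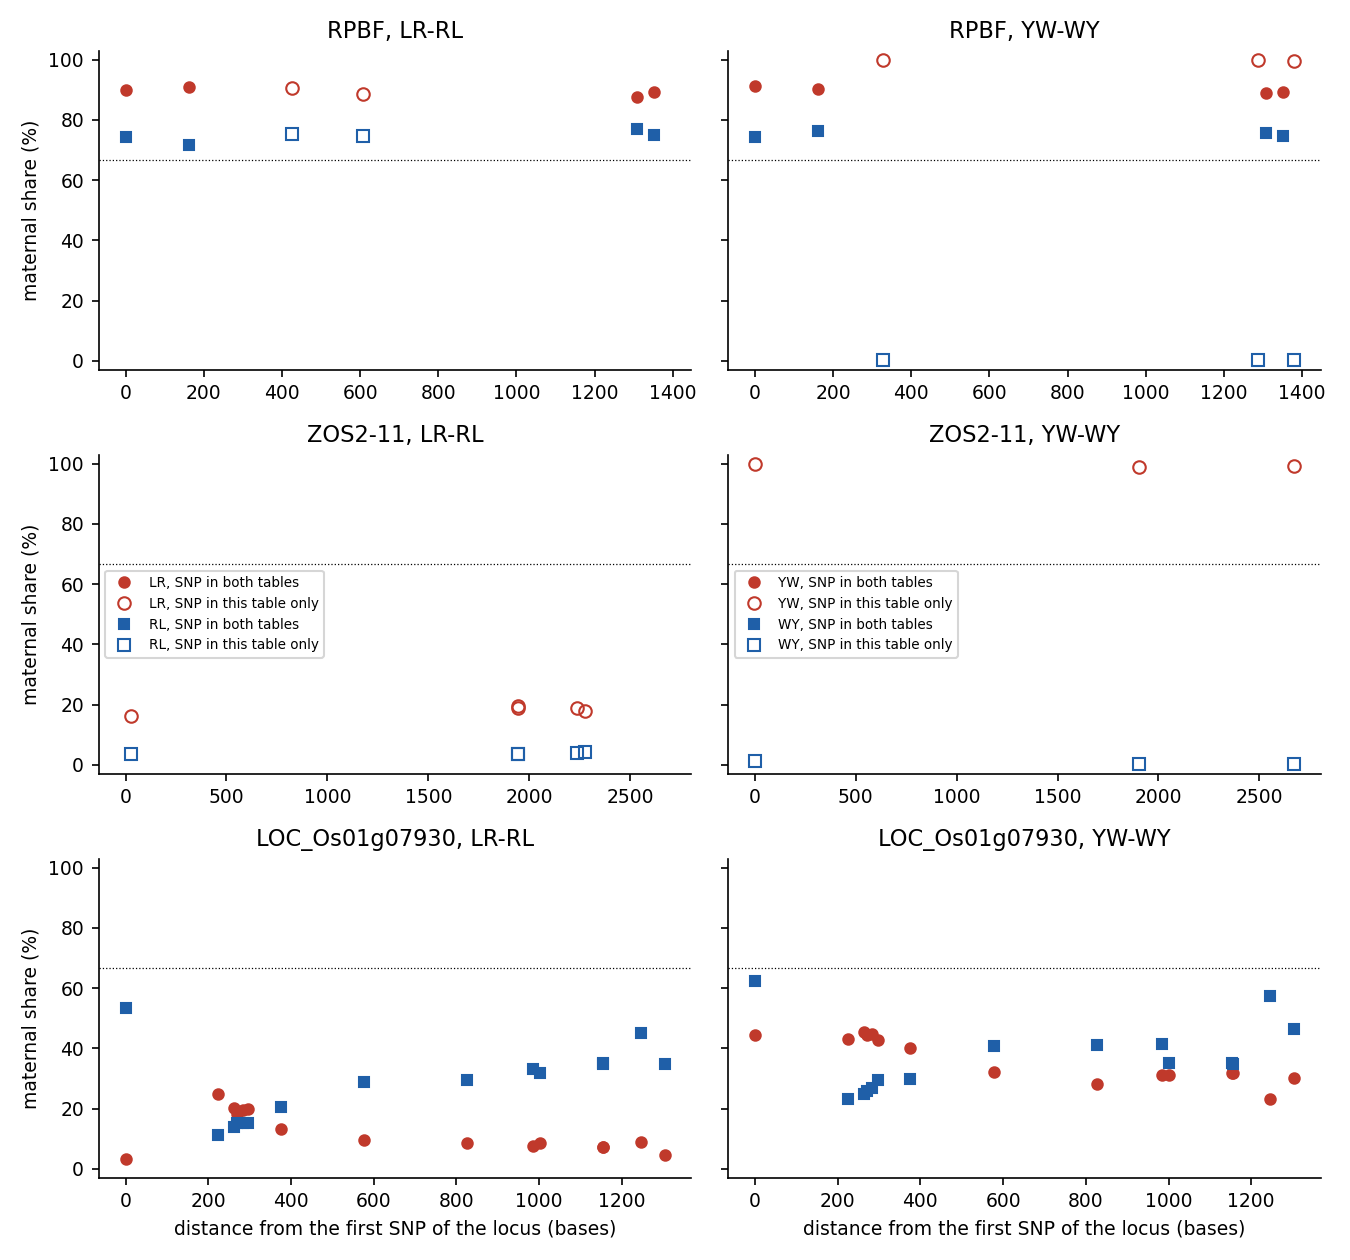
Maternal share (%) at each SNP of RPBF, ZOS2-11 and LOC_Os01g07930 against the distance from the first SNP of the locus (bases). Red circles are crosses with the japonica mother and blue squares those with the indica mother; filled points are SNPs listed in both tables and open points SNPs listed in 1 table. RPBF has open points near 100% and 0% in YW-WY beside filled points at 74.4% to 91.2%, ZOS2-11 has no filled point, and at LOC_Os01g07930 the reciprocal crosses drift in opposite directions and pass each other in both sets.

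The C2H2 gene ZOS2-11 (LOC_Os02g36360, chromosome 2) changed its call between sets in the same setting. It was strongly paternal in LR-RL, with 18.4% maternal reads in LR and 3.68% in RL, and japonica in YW-WY, with 99.3% in YW and 0.443% in WY. The 5 SNPs of LR-RL and the 3 of YW-WY have no position in common. All 3 SNPs of YW-WY had at least 98.8% japonica bases in both crosses, so the parental share of ZOS2-11 in YW and WY was not measured at any SNP seen in LR and RL. Its joint paternal call (-3.59, log2; edgeR adjusted p 2.0e-30) was lost with DESeq2 (adjusted p 0.0598), with 1 strain effect for both sets (0.815), without LR (0.796) and without YW (0.104).

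SNPs of this kind were counted over all members. A SNP was taken as one-strain where at least 98% of reads carried the same strain's base in both crosses, with at least 20 reads in each, a rule chosen after the data were seen. In YW-WY, 35 of the 185 member SNPs listed in that table alone were one-strain (18.9%), against 37 of the 1258 listed in both tables (2.94%). Over all loci, SNPs with the japonica base made up 32.4% and 3.55% in the same order. One-strain SNPs with the indica base made up a further 1.70% and 0.643% of all loci's SNPs. In LR-RL, 0 of 139 member SNPs listed in that table alone and 21 of 1253 listed in both (1.68%) were one-strain. All of the one-strain SNPs of members carried the japonica base. They lay in 19 members of YW-WY, of which 18 had a japonica call. The reads of these SNPs enter the sum behind the call, so they move it toward japonica by construction. In 15 of the 19, other SNPs of the same locus were not one-strain. The cause of these SNPs was not tested.

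With positions listed in both tables alone, 39 of 249 members had a japonica call in LR-RL (15.7%, against 19.5%). In YW-WY 56 of 256 had one (21.9%, against 27.9% of all loci), where all SNPs gave 75 of 292 (25.7%, against 32.1%). Besides RPBF, LOC_Os10g35670 and LOC_Os01g74540 changed from a japonica to a maternal call, at 68.9% and 69.1% maternal in WY. LOC_Os09g24650, LOC_Os09g29750 and LOC_Os06g19444 lost the japonica call. These 5 loci are named because their calls changed, not by a rule set beforehand. Paternal calls with the common positions numbered 23 of 249 in LR-RL (9.24%, against 6.76%) and 15 of 256 in YW-WY (5.86%, against 3.83%). Maternal calls numbered 22 in YW-WY (8.59%, against 6.30%). The 14 members paternal in both sets were 14 again, all of them the same loci, against 3.61% of all loci. Those maternal in both sets became 9, of which 8 were called before, against 1.55% of all loci.

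Strain-dependent calls were more frequent than parental calls among zinc finger loci, as among all loci. In LR-RL, 42 of 271 were japonica (15.5%, against 20.1%) and 19 indica (7.01%, against 11.0%). In YW-WY, 75 were japonica, as given above, and 10 indica (3.42%, against 5.13%). With each cross's own median as null, LR-RL had 26 japonica calls, and YW-WY had 41 japonica and 30 indica calls. Shares of all loci with that null are not given here. The japonica call was shared by both sets at 30 of 258 loci (11.6%, against 16.2% of all loci) and the indica call at 4 (1.55%, against 3.76%). Of the 258 loci, 144 lay on the japonica side and 43 on the indica side in both sets, whether called or not. All 9753 loci tested in both sets leaned toward japonica too. The maternal share of YW exceeded that of WY at 79.1% of them, and that of LR exceeded that of RL at 59.1%. Their share on the same side in both sets is not given here. The counts of 144 and 43 can thus not be read as particular to zinc finger loci.

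ZOS11-06 (LOC_Os11g38330), a C2H2 gene, showed the widest strain difference seen in both sets. It was 99.1% maternal in LR and 1.94% in RL, and 99.6% in YW and 1.49% in WY, over 51 and 46 SNPs. Nearly all reads of the locus were thus japonica, whichever parent was japonica. Its RPM per SNP came to 3.96 in LR and 1.97 in RL, and to 5.01 in YW and 1.44 in WY. Of its 45 SNPs with at least 20 reads in YW and WY, 31 were one-strain, and each of these is listed in both tables. LOC_Os01g52030, a gene of the A20 and AN1 stress-associated type, was 94.8% maternal (LR), 29.3% (RL), 87.9% (YW) and 12.5% (WY), from 1 SNP. The RING-type gene LOC_Os01g42500 was 85.7%, 37.6%, 88.7% and 30.2% maternal in the same order. LOC_Os07g17130 has a FYVE finger, a fold that binds a membrane lipid, and its shares were 79.9%, 38.5%, 77.5% and 33.8%. Its call was lost in both sets with the most read SNP alone, at strain effects of 0.38 and 1.11 (log2; 1.32 and 1.37 with all SNPs). It was also lost in LR-RL with SNPs at least 100 bases apart (1.04) or listed in both tables (0.92), and in YW-WY with each cross's own median as null (0.95). In LOC_Os05g05280, which had the same pattern, 11 SNPs were also assigned to another locus, so its reads are uncertain.

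The indica allele was high in both sets at ZOS1-22 (LOC_Os01g68160), a C2H2 gene, at 30.2% maternal (LR), 83.6% (RL), 60.8% (YW) and 79.8% (WY). The departure was larger in LR-RL, with a strain effect of -1.78 against -0.67 in YW-WY (log2, below 0 for indica). With its most read SNP alone there was no call in YW-WY, at an effect of -0.78. LOC_Os07g30820 and LOC_Os03g49170 were the other members with this call beside LOC_Os01g61430. ZOS3-07 (LOC_Os03g13600), chosen for mention after its values were seen, differed between the sets at a SNP that both tables list. At that SNP it was 64.5% maternal in LR and 73.2% in RL, but 17.3% in YW (11.3 to 25.4) and 96.6% in WY (93.9 to 98.2). The strain effect there was -0.29 in LR-RL and -3.51 in YW-WY (log2). Over its 3 SNPs in LR-RL the shares were 65.1% and 67.8%. The indica allele was thus high in the Yu6 and Wufeng crosses, and LR and RL had no call. No test over plants of this difference can be had, since replicates are pooled.

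**Figure D5:**
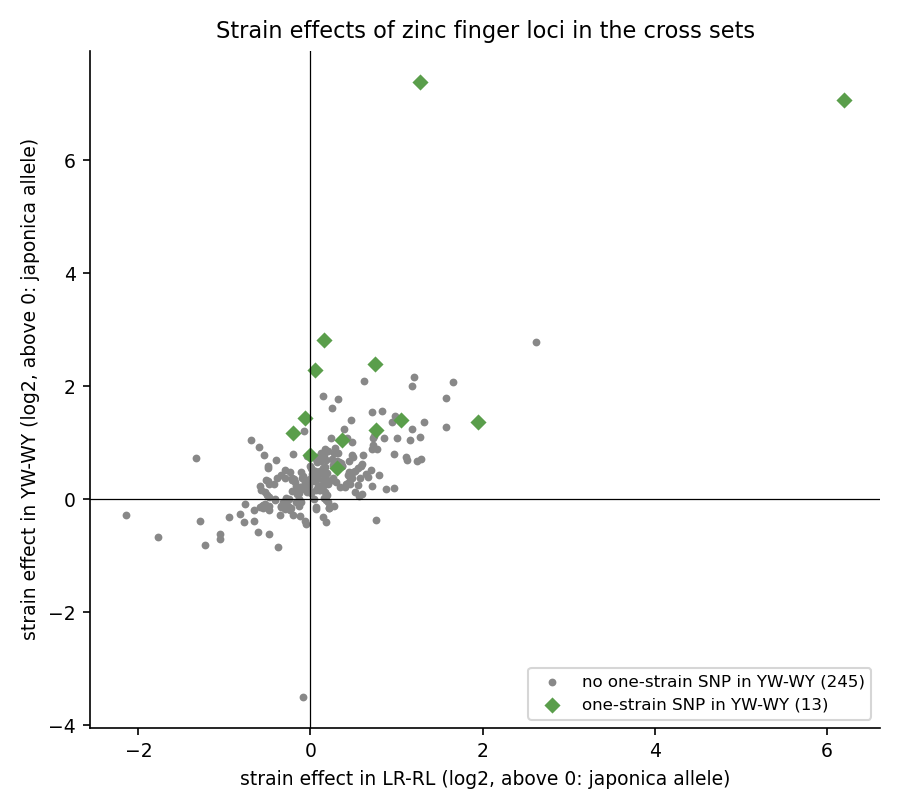
Strain effect of each zinc finger locus tested in both sets (n = 258), in LR-RL (x axis) and YW-WY (y axis), as the log2 departure toward the japonica allele (above 0) or the indica allele (below 0). Green diamonds are the 13 loci with a one-strain SNP in YW-WY. ZOS11-06 lies at the upper right, ZOS2-11 lies at 7.39 in YW-WY and 1.28 in LR-RL, and ZOS3-07 is the lowest point of YW-WY.

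The most read member was LOC_Os06g41010, of the A20 and AN1 stress-associated type. Its level was 933 RPM per SNP (LR), 2816 (RL), 1056 (YW) and 2062 (WY), higher with the indica mother in both sets. Its share was 59.2% maternal (LR), 74.0% (RL), 69.6% (YW) and 73.0% (WY), an indica call in LR-RL and a maternal call in YW-WY. The latter was lost with each cross's own median as null, at a parental effect of 0.14 (log2; 0.31 against 2:1). Its joint effect was 0.17 ± 0.26 (log2; edgeR adjusted p 0.98), so the joint fit gave no call. In LR-RL the libraries also differed in their starchy endosperm genes, as given above, and the part of that in these levels was not tested. The maternal LOC_Os09g26470 went the other way, with 3.35 RPM per SNP in LR and 0.678 in RL, and 4.81 in YW and 1.07 in WY.

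Genes with related fingers that the words zinc finger do not name were counted in the same way. Of the loci annotated as RING-H2 or RING finger proteins, 4 of 18 were paternal in LR-RL (22.2%, against 6.75% of all loci) and 0 maternal. In YW-WY 2 of 19 were paternal (10.5%, against 3.64%) and 1 maternal (5.26%, against 5.94%). One of them, LOC_Os03g07130, was strongly paternal in LR-RL and paternal in YW-WY, at 20.2% maternal (LR), 18.4% (RL), 31.9% (YW) and 21.3% (WY). PHD finger genes, whose products read histone tails, had 1 paternal call among 9 in LR-RL (11.1%), and 1 paternal and 1 maternal among 8 in YW-WY (12.5% each). WRKY genes, which encode DNA-binding factors with a zinc-binding fold, had 1 paternal call among 16 (6.25%, against 6.75%) and 1 of each kind among 17 (5.88% each). Single calls in lists of this size were not tested against all loci.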

How the data were processed

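Endosperm RNA of 4 reciprocal crosses was read at SNPs between the parents. Each deposited table holds read counts per SNP, 1 column for the mother's allele and 1 for the father's in each cross, per the file headers; the libraries of a cross are summed. Per the submitters' processing notes the authors used Trimmomatic 0.32, Bowtie2 2.2.1, SAMtools 0.1.16 and GATK 3.5, with no order given. Coordinates follow a build not given in the sources used here. Each SNP has 11 reads or more in each cross of its set. Inbred control libraries were not used here.

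Counts were summed over the SNPs of a locus, so a read over several SNPs counts at each, and intervals and floors cover counting error only. A count of 0 allows a share of up to 3 counts of the total. Loci with at least 30 reads in LR and RL, or 20 in YW and WY, were tested. The lowest member inside had 33 and 20 reads, and the highest outside 28 and 18. The exact binomial test used a null of 2:1. Since no column holds a single library, the joint fit took the 2 cross sets as replicates of the parent effect (edgeR 4.0.16 in R 4.3.3, quasi-likelihood, offset for 2:1, cross and strain terms, common dispersion 0.0469, 1 residual degree of freedom), with DESeq2 1.42.0 as an alternative. Binomial tests and intervals used scipy 1.17.1. The log2 departures per set used 0.5 added to each count. The code was tested on simulated data. Classes were read from annotation words. Named genes were members with a strong call, the same call in both sets (at most 8 parental each way that the joint fit also called and 5 by strain), the largest differences between sets, the most read member of a class, and RPBF. The members, lists and rules were chosen with earlier results of these data known. None of the members matched a RefSeq gene by its ID, and no sequences are shown.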

Additional observations from a re-analysis of the deposited data

How the results depend on the processing

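No paired analysis was possible because the tables hold 1 pooled count per allele and cross, so no replicate could be left out or used as a block. No called effect of a gene named by the fixed rule changed sign under an alternative, but calls changed kind. With common SNPs, RPBF went from japonica to maternal in YW-WY. So did LOC_Os10g35670 and LOC_Os01g74540, which that rule did not name. Of 12 genes named by the fixed rule and without a joint call, 6 had a joint effect of the other sign in an alternative. An example is ZOS1-22 (-0.06, and 0.15 with the most read SNP). With the median ratio of each cross as the null, japonica calls became 26 in LR-RL and 41 in YW-WY. In YW-WY maternal calls then numbered 10, paternal 23, indica 30 and strong paternal 5. With the SNP with most reads only, LR-RL had 22 japonica calls and YW-WY 49, and YW-WY had 12 maternal and 9 paternal calls. With no minimum of reads, YW-WY had 2 strong paternal calls. With SNP positions listed in both sets (chosen after seeing the data), LR-RL had 5 strong paternal calls. The joint fit called 14 paternal with 1 strain effect for both sets. Leaving out a cross, an alternative added after seeing the data, it called 7 paternal without LR, 15 without RL, 14 without YW and 13 without WY, and 3 maternal without LR or without YW. These fits also have 1 strain effect for both sets and fewer crosses. RPBF had an effect of 0.13 (log2) for the SNP with most reads only. The report gives the lost joint calls beside their genes; those of LOC_Os10g41660, LOC_Os09g26470, LOC_Os12g40790, ZOS5-09 and LOC_Os04g47410 were lost without LR and without YW. The cause of these changes was not tested. The counts above are of zinc finger loci alone, and their changes cannot be read as particular to these loci. Depth limits members with few reads most, such as LOC_Os05g48970 with 59 reads in LR.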
